A study of Mus musculus with 6 samples.

Results

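The genes described here encode RNA-binding proteins that set how long cytokine mRNAs last. They are 10 genes, matched by symbol among the 24411 gene features of the count tables: Zfp36, Zfp36l1 and Zfp36l2 (the tristetraprolin family), Zc3h12a and Zc3h12c (regnases), Rc3h1 and Rc3h2 (roquins), and Elavl1, Khsrp and Hnrnpd (other AU-rich element binding proteins). RNA-seq counts from primary microglia (PM) of ICR neonatal mice were compared between 3 libraries of PM given GSK-J4 (10 µM) and 3 libraries of PM given LPS (10 ng/ml) together with GSK-J4 (10 µM), at 4-h. PM were isolated from mixed glial cultures of brains pooled from 12 mice at 3 days of age, and the methods describe the libraries of a group as independent biological replicates. Which pool of animals was behind each library was not given in the sources used here, and p values measure the spread between these libraries. Both groups received GSK-J4, an inhibitor of the H3K27 demethylases of the Jumonji family, and LPS, a bacterial ligand of TLR4, was the only agent that differed. Untreated PM, PM with LPS alone and BV-2 cells were not analysed here, so the effect of GSK-J4 on these genes was not measured.

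Inflammatory mRNAs are short-lived because their 3′ UTRs carry signals for decay. Tristetraprolin and its relatives bind AU-rich elements, built from the heptamer TATTTAT (written as DNA) and its longer form, the nonamer TTATTTATT, and recruit the CCR4-NOT deadenylase. Regnase-1, an endonuclease, and the roquins recognise small stem-loops with a loop of pyrimidine, purine and pyrimidine. KHSRP promotes decay of mRNAs with AU-rich elements, AUF1 (from Hnrnpd) mostly does so, and HuR (from Elavl1) binds similar elements and stabilises mRNAs. In macrophages and microglia, tristetraprolin and regnase-1 are known as feedback inhibitors that are themselves made after TLR stimulation.

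Between 2597505 and 3472716 fragments were counted on genes per library. The ribosomal RNA precursor Rn45s took 22.2 to 32.4% of these in GSK-J4 against 45.8 to 48.1% in LPS + GSK-J4, which left between 1374377 and 2443344 counts outside 3 ribosomal features. Levels are given as CPM, counts scaled to the library size after TMM adjustment, in which 3 counts equal 0.673 to 1.24 CPM. Replicate 3 of both groups stood apart from the other libraries on the second principal component, at -15.8 and -29.6 against 2.97 to 21.4. Over the mean of both groups, the highest marker of the other cell types listed was Gja1 for astrocytes (mean 20.7 CPM in GSK-J4 against 53.0 CPM in LPS + GSK-J4), Mbp for the oligodendrocyte lineage (79.3 and 122), Map2 for neurons (10.1 and 20.8) and Col3a1 for fibroblasts and vessels (76.7 and 107). Microglia markers summed to between 4890 and 5090 CPM in GSK-J4 and between 4020 and 4170 CPM in LPS + GSK-J4. Of the 15, 0 rose and 2 fell (Cx3cr1 and Csf1r). Calls here and below are at an adjusted p of at most 0.01 in edgeR, by which 8.42% of all genes tested rose and 5.46% fell. The summed level of 10 astrocyte markers was 62.1 to 66 CPM against 151 to 181 CPM, with 4 of 9 tested up-regulated, among them Gfap. Oligodendrocyte lineage markers summed to 216 to 250 CPM against 394 to 448 CPM, with 5 of 8 tested up-regulated. Neuron markers stood at 21.2 to 26.4 CPM against 54.1 to 64.8 CPM, with 4 of 4 tested up-regulated. The other 6 of the 10 neuron markers were too low to test, at group means of at most 1.07 CPM, and differed in both directions. Fibroblast, pericyte and endothelial markers stood at 115 to 330 CPM against 219 to 560 CPM, with 2 of 8 up-regulated and Cldn5 at 0 in all libraries. The part of these other cells in the results that follow was not tested, and in bulk RNA fewer cells of a type and less RNA per cell cannot be told apart.

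LPS with GSK-J4 up-regulated 4 of the 10 decay factor genes and down-regulated 0. The 4 were the genes of tristetraprolin (Zfp36), its relative Zfp36l1, regnase-1 (Zc3h12a) and regnase-3 (Zc3h12c), and their means rose between 1.85- and 3.84-fold. The roquin genes and Elavl1, Khsrp, Hnrnpd and Zfp36l2 did not pass the test. In edgeR 1 member, Zfp36l2, was lower at an unadjusted p under 0.05, and DESeq2 also called 0 members lower. A gene is called changed here at an adjusted p of at most 0.01 in edgeR's quasi-likelihood test over 10133 genes, of which 8.42% rose and 5.46% fell (13.9% in all). With the added threshold of the study, a log2 fold change of at least 1.5, 3 members (Zfp36, Zc3h12a and Zc3h12c) were called against 2.95% of all genes upward, 0.809% downward and 3.76% in either direction. The DESeq2 Wald test called 2 of these 3, with Zc3h12a at 1.49. All 10 members passed the filter on low counts. The median log2 fold change of the members was 0.29, and over all genes tested it was -6e-04, with quartiles of -0.29 and 0.35. The lowest value in LPS + GSK-J4 exceeded the highest in GSK-J4 for 5 members, against 19.8% of all genes, and the reverse held for 0 members, against 18.4% (38.2% in all).

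**Figure D1:**
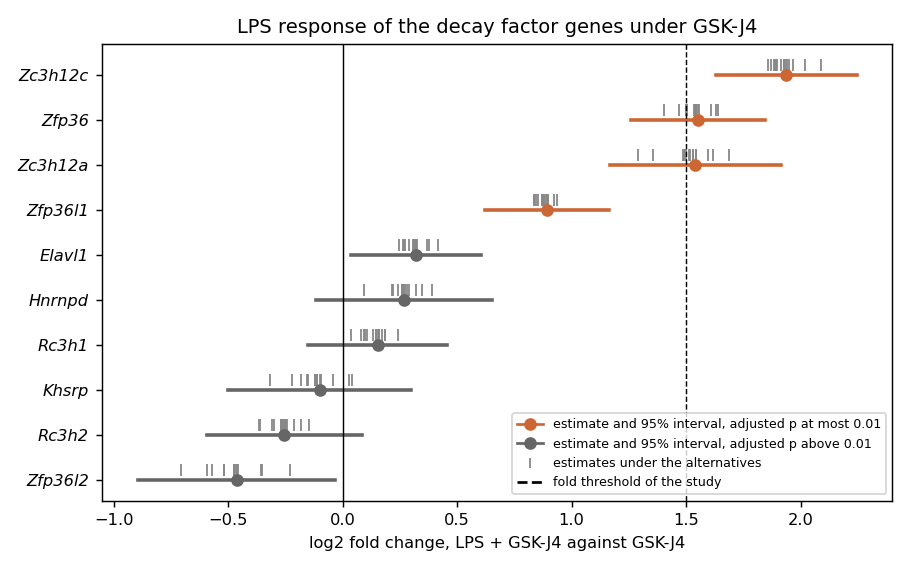
Log2 fold change of LPS + GSK-J4 over GSK-J4 for the 10 decay factor genes from edgeR, with bars for the 95% confidence interval, orange for an adjusted p of at most 0.01 and grey for higher values, ticks for the estimates under 15 alternatives, and a dashed line at the fold threshold of the study, 1.5. The 4 orange genes lie to the right of 0, and only Zc3h12c, at 1.94, has all its ticks beyond the dashed line.

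Zfp36, on chromosome 7 (28376784 to 28380253, minus strand, mm10), encodes tristetraprolin, which binds AU-rich elements and brings the deadenylase to them. Its level was 142, 157 and 179 CPM in the GSK-J4 libraries and 429, 414 and 559 CPM in the LPS + GSK-J4 libraries, from 489 to 1354 counts. The groups were clear of each other, and replicate 3 was the highest in both groups. Its mean was 159.6 ± 18.6 CPM without LPS and 467 ± 79.7 CPM with it (SD, n = 3), and the log2 fold change was 1.55 (SE 0.14, 95% confidence interval 1.26 to 1.84, adjusted p = 5.084e-07 in edgeR). It ranked at 288 of 10133 genes by log2 fold change. It passed the fold threshold of the study narrowly, since the value was 1.41 without LPS + GSK-J4 replicate 3 and 1.47 without GSK-J4 replicate 1.

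The 3′ UTR of Zfp36 has 3 TATTTAT heptamers in 774 bases, so the mRNA carries the motif that its own protein recognises. The 30 bases with the most heptamers are printed for Zfp36 and its relatives, with those of Tnf and Cxcl2, whose mRNAs are classical tristetraprolin targets, for comparison. Capitals mark the heptamers, and all are mm10 sequence on the strand of the gene.
Zfp36 (chr7:28376954-28376983): TATTTATgacgacttTATTTATtgtattaa
Zfp36l1 (chr12:80108410-80108439): TATTTATtgccaaactatgctttttttgtt
Zfp36l2 (chr17:84184902-84184931): TATTTATtatcttgtgaaaagtatacattg
Tnf (chr17:35199677-35199706): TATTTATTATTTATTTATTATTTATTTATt
Cxcl2 (chr5:90905327-90905356): TATTTATTTATctatgTATTTATTTATtta
The Zfp36 window holds 2 separate heptamers and those of Zfp36l1 and Zfp36l2 hold 1 each. In Tnf 5 heptamers lie in a single run, and in Cxcl2 4 lie in 2 runs.

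Zfp36l1 and Zfp36l2 encode the closest relatives of tristetraprolin, with the same pair of zinc fingers. Zfp36l1 (chromosome 12, 80107754 to 80113013) was at 54.5, 61.3 and 59.0 CPM in GSK-J4 and at 101, 109.9 and 114 CPM in LPS + GSK-J4. The groups did not overlap, and the libraries of each group lay close together. The rise was from 58.3 ± 3.45 to 108 ± 6.63 CPM (SD, n = 3), with a log2 fold change of 0.89 (SE 0.13, interval 0.62 to 1.16, edgeR adjusted p = 8.784e-05).

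Zfp36l2 (chromosome 17, 84183931 to 84187947) was the member with the lowest log2 fold change, and it did not pass the test. It was at 68.7, 71.4 and 110.0 CPM in GSK-J4 and at 50.3, 50.4 and 79.3 CPM in LPS + GSK-J4. Replicate 3 was the highest in each group, and the groups overlapped through it. The log2 fold change was -0.46 (SE 0.20, interval -0.90 to -0.03, adjusted p = 0.1162 in edgeR). Without LPS + GSK-J4 replicate 3 it was -0.71 (adjusted p = 0.0071), and with replicate 3 of both groups left out, an alternative added after the data were seen, it was -0.47 (adjusted p = 0.00629). Without a filter on low counts it was -0.52 (adjusted p = 0.00677 in edgeR), and with a replicate block it was -0.47 (adjusted p = 0.000966 in edgeR). All of these passed the threshold, and the other 11 of 15 alternatives did not. Over the 15 the value lay between -0.71 and -0.23, with an adjusted p of up to 0.426 in edgeR or DESeq2.

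The make-up of the tristetraprolin family differed between the groups by more than the spread between libraries. Per kb of the principal transcript, Zfp36 made up 57.5, 58.1 and 55.8% of the family's summed CPM in GSK-J4 and 76.2, 74.4 and 76.8% in LPS + GSK-J4. The difference of the means, 18.7 percentage points, was larger than the SD over libraries of 1.18 and 1.25. The share of Zfp36l2 was 21.9, 20.8 and 27.1% against 7.07, 7.15 and 8.61%, and its groups did not overlap either. Shares of a family add up to a fixed total, so a rise of Zfp36 by itself lowers the other shares. The lower share of Zfp36l2 is therefore not a separate result, and its CPM overlapped between the groups (adjusted p = 0.1162 in edgeR). Zfp36l1 held 19.6% ± 2.15 and 16.6% ± 1.93 (SD, n = 3), and its groups overlapped. A 2-sided exact permutation test gave p = 0.1 for Zfp36 and for Zfp36l2, the smallest value that 3 libraries against 3 allow (0.267 after adjustment over 8 shares), and p = 0.2 for Zfp36l1. The summed level of the family was 100.3 ± 13.5 CPM per kb in GSK-J4 against 221 ± 34.8 in LPS + GSK-J4 (SD, n = 3), which is 2.2-fold higher.

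**Figure D2:**
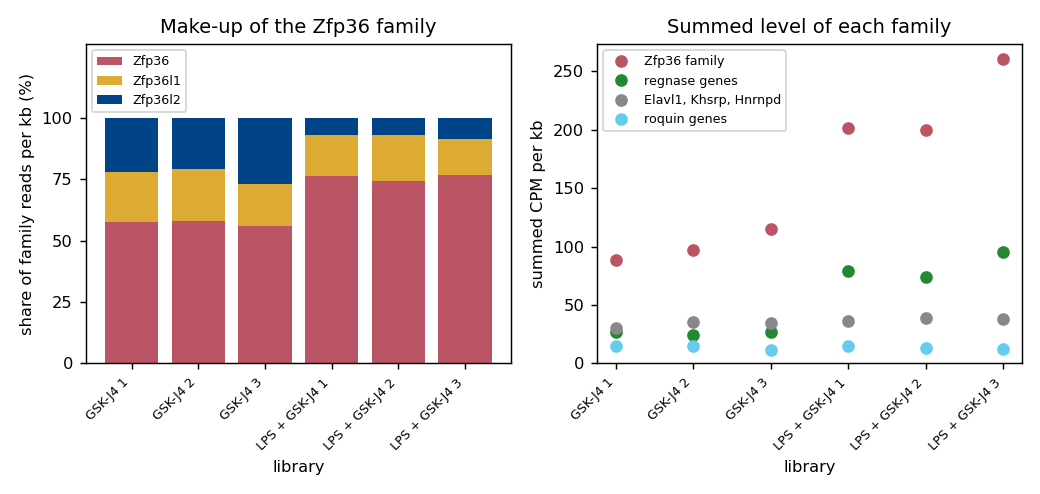
Left, share of Zfp36, Zfp36l1 and Zfp36l2 in their summed reads per kb, in percent, as stacked bars for each of the 6 libraries. Right, summed CPM per kb of the 4 groups of genes in each library. Zfp36 takes 55.8 to 58.1% of its family in the GSK-J4 libraries and 74.4 to 76.8% in those with LPS, and the sums of the Zfp36 family and the regnases are higher in every library with LPS.

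The regnase genes rose together. Zc3h12a (chromosome 4, 125118423 to 125127840) encodes regnase-1, the endonuclease that cleaves Il6 and other inflammatory mRNAs. It was at 46.7, 45.1 and 52.1 CPM in GSK-J4 and at 124, 109.9 and 184 CPM in LPS + GSK-J4. All LPS + GSK-J4 libraries were above all GSK-J4 libraries, with replicate 3 the highest. The means were 48.0 ± 3.64 and 139 ± 39.5 CPM (SD, n = 3), with a log2 fold change of 1.54 (SE 0.18, interval 1.17 to 1.91, adjusted p = 8.56e-06 in edgeR). This passed the fold threshold of the study, but the value was 1.29 without LPS + GSK-J4 replicate 3, 1.35 without replicate 3 of both groups, and 1.49 without GSK-J4 replicate 2, without a filter on low counts and in DESeq2. The threshold was met in 10 of 15 alternatives for Zc3h12a and in 12 of 15 for Zfp36.

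Zc3h12c (chromosome 9, 52111344 to 52168572) encodes regnase-3, a relative of regnase-1 with the same kind of nuclease domain. With 68.4, 51.4 and 51.3 CPM in GSK-J4 and 233, 232 and 193 CPM in LPS + GSK-J4, it was the member with the largest fold change. Its groups were well separated, and here replicate 3 was the lowest of the LPS + GSK-J4 libraries. The means were 57.1 ± 9.85 and 219 ± 22.8 CPM (SD, n = 3), and the log2 fold change of 1.94 (SE 0.14, interval 1.63 to 2.24, adjusted p = 6.783e-08 in edgeR) ranked at 146 of 10133 genes. It stayed between 1.86 and 2.09 when each library was left out in turn. The microRNA gene Mir6244 overlaps this locus in the annotation.

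Together, the regnases stood at 25.8 ± 1.65 CPM per kb in GSK-J4 against 82.9 ± 11.1 in LPS + GSK-J4 (SD, n = 3), 3.21-fold higher. Zc3h12a took 67.4% ± 4.42 and 60.2% ± 8.72 of this sum, with overlapping groups (exact permutation p = 0.3, 2-sided). A test of 3 libraries against 3 cannot reach a p below 0.1, so the balance of the regnases is given as values only.

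The roquin genes did not pass the test in either direction. Roquin-1 and roquin-2 bind stem-loops in Tnf, Icos and other mRNAs and recruit CCR4-NOT. Rc3h1 (chromosome 1, 160906418 to 160974978, plus strand) was at 75.7, 81.0 and 59.0 CPM in GSK-J4 and at 86.6, 78.2 and 76.4 CPM in LPS + GSK-J4. Rc3h2 (chromosome 2, 37370069 to 37422903) was at 69.4, 67.1 and 52.1 CPM against 60.5, 54.2 and 44.2 CPM. The groups of both genes overlapped. Their log2 fold changes were 0.15 (interval -0.15 to 0.46, adjusted p = 0.4946) and -0.25 (interval -0.59 to 0.09, adjusted p = 0.2835) in edgeR, so that a rise of the size seen for Zfp36l1 lay outside both intervals. Within the pair, the share of Rc3h1 was 46.6, 49.1 and 47.5% in GSK-J4 and 53.4, 53.6 and 58.0% in LPS + GSK-J4, with no overlap and a difference of 7.24 percentage points. The 2-sided exact permutation test gave p = 0.1, the smallest possible, and 0.267 after adjustment over 8 shares. The summed roquin level was 13.7 ± 2.08 and 13.3 ± 1.39 CPM per kb (SD, n = 3). The small nucleolar RNA gene Snord90 overlaps Rc3h2.

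Stem-loops of the kind that regnase-1 and the roquins recognise were found in the 3′ UTRs of 4 members, as a 3-base loop of pyrimidine, purine and pyrimidine closed by at least 6 Watson-Crick pairs. A selection is printed, made after they were seen, with the loop in capitals (mm10, strand of the gene). It holds 2 of 3 from Zc3h12a, 1 of 4 from Rc3h1, the single ones of Zc3h12c and Rc3h2, and 1 of 2 from each of the target mRNAs Tnf, Nfkbid and Nfkbiz, to set the members' loops beside those of known targets.
Zc3h12a, first (chr4:125119069-125119083): gatacaCATtgtatc
Zc3h12a, second (chr4:125118887-125118901): aggcacCATgtgcct
Zc3h12c (chr9:52113469-52113483): ctgaacCATgttcag
Rc3h1 (chr1:160971660-160971674): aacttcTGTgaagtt
Rc3h2 (chr2:37373809-37373823): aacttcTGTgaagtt
Tnf (chr17:35199585-35199599): gttttcTGTgaaaac
Nfkbid (chr7:30428402-30428416): gatttcTGTgaaatc
Nfkbiz (chr16:55812613-55812629): ttgtttcTATgaaacaa
Rc3h1 and Rc3h2 carried the identical stem-loop of 15 bases, with the same TGT loop as the Tnf and Nfkbid structures printed. Zc3h12a held 3 such structures in 856 bases of 3′ UTR and Rc3h1 held 4 in 7181 bases, of which 2 overlap. These are matches of letters only, and folding and binding were not measured.

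Elavl1, Khsrp and Hnrnpd also did not pass the test. Elavl1 (chromosome 8, 4285382 to 4325413) encodes HuR, which protects mRNAs with AU-rich elements. It was at 96.0, 103 and 87.3 CPM in GSK-J4 and at 124, 132 and 102 CPM in LPS + GSK-J4, and only replicate 3 of LPS + GSK-J4 lay within the range of the other group. Its log2 fold change was 0.32 (interval 0.04 to 0.60, adjusted p = 0.09732 in edgeR), and with replicate 3 of both groups left out it was 0.37 (adjusted p = 0.00956 in edgeR). The other 14 of 15 alternatives did not pass, and over the 15 the value lay between 0.24 and 0.42. The gene Ccl25 overlaps this locus. By number, Elavl1 also had the most heptamers (8) and nonamers (8) of the members, in a 3′ UTR of 4218 bases, of which the densest 30 bases (chr8:4285776-4285805) hold 5 heptamers, in capitals.
Elavl1: TATTTATTTATTTATTTATtttTATTTATt

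Khsrp (chromosome 17, 57021051 to 57031522), which encodes the decay-promoting protein KSRP, was at 41.3, 48.0 and 58.7 CPM in GSK-J4 and at 36.3, 42.0 and 59.1 CPM in LPS + GSK-J4. Replicate 3 was the highest of both groups, and the spread within each group exceeded the difference between them. The log2 fold change was -0.10 (interval -0.50 to 0.30, adjusted p = 0.7554 in edgeR), and its sign turned when GSK-J4 replicate 3 or LPS + GSK-J4 replicate 1 was left out (0.03 and 0.04). Hnrnpd (chromosome 5, 99955935 to 99978938), which encodes AUF1, was at 23.6, 35.7 and 33.4 CPM in GSK-J4 and at 38.2, 37.0 and 35.9 CPM in LPS + GSK-J4. All LPS + GSK-J4 libraries were above the GSK-J4 libraries, the nearest by less than 1 CPM, and the log2 fold change was 0.27 (interval -0.11 to 0.65, adjusted p = 0.3191 in edgeR). Per kb, Elavl1 made up 49.8% of the summed level of the 3 genes in GSK-J4 against 55.1% in LPS + GSK-J4 (exact permutation p = 0.3, 2-sided), and the shares of all 3 overlapped between the groups.

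**Figure D3:**
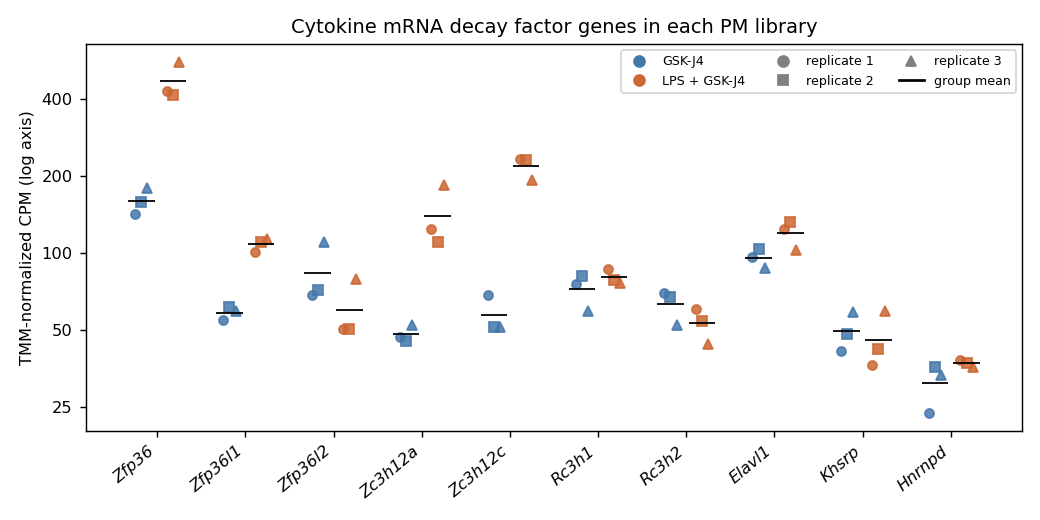
Level of each of the 10 decay factor genes in each library, in CPM after TMM scaling on a log axis, with blue points for GSK-J4, orange points for LPS + GSK-J4, a shape for each replicate number and a line for the group mean. The orange points of Zfp36, Zfp36l1, Zc3h12a and Zc3h12c, and narrowly of Hnrnpd, lie above all their blue points.

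Levels between genes were compared per kb of the principal transcript. In GSK-J4, Zfp36 was the most abundant at 57.2 ± 6.67 CPM per kb, with no overlap with the next gene, Zfp36l2 at 23.6 ± 6.55 (SD, n = 3). Zfp36l1 (19.5), Zc3h12a (17.4) and Elavl1 (16.6) followed, and neighbours in this order overlapped from Zfp36l2 to Elavl1. Below these were Khsrp at 12.4 and Zc3h12c at 8.43 CPM per kb, each apart from the gene above it. Rc3h2 (7.14) overlapped with Zc3h12c and Rc3h1 (6.53) with Rc3h2, and Hnrnpd was the lowest at 4.53. In LPS + GSK-J4, Zfp36 was again first at 168 ± 28.6 CPM per kb. Zc3h12a was then second at 50.5 ± 14.3, without overlap with the genes on either side. Zfp36l1 (36.1) and Zc3h12c (32.4) overlapped with each other and were clear of Elavl1 (20.8). Zfp36l2, second in GSK-J4, was sixth at 17.0 ± 4.73, and it overlapped with the genes on either side, Elavl1 and Khsrp. Khsrp (11.5), Rc3h1 (7.31), Rc3h2 (6.02) and Hnrnpd (5.44) followed, and Hnrnpd was the lowest in both groups.

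Motifs of the decay system were present in the 3′ UTRs of most members. TATTTAT was found in 7 of 10 members against 30.4% of the 9646 genes with a 3′ UTR, the nonamer in 6 against 7.95%, and the stem-loop in 4 against 9.99%. The members' 3′ UTRs were longer, with a median of 2948.5 bases against 1113, and held 0.728 heptamers per kb against 0.296. Among 32 cytokine and other mRNAs known as targets of tristetraprolin, regnase-1 or roquin, 71.9% had the heptamer at 2.89 per kb in a median of 647 bases. Both up-regulated and not up-regulated members carried the motifs. Zfp36, Zfp36l1, Zfp36l2 and Rc3h2 each had 3 heptamers and Zc3h12c and Rc3h1 had 2, whereas Zc3h12a, Khsrp and Hnrnpd had 0.

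**Figure D4:**
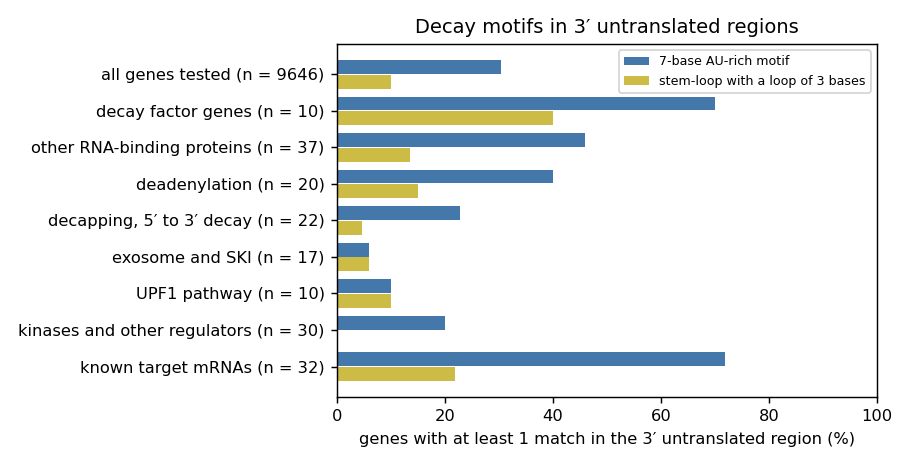
Percent of genes with at least 1 TATTTAT heptamer (blue) or at least 1 stem-loop (yellow) in the 3′ UTR, for all genes tested, the decay factor genes and the other gene lists, with the number of genes that have a 3′ UTR in parentheses. The decay factor genes are at 7 and 4 of 10, all genes tested at 30.4% and 9.99%, and the target mRNAs at 71.9% and 21.9%.

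Promoters of 9 members were available from RefSeq (GRCm38.p6), as the 250 bases before and 50 bases after the start. Each window was searched on both strands for the kappa B consensus, the CArG box, TGACTCA, TGACGTCA and GCGNGGGCG, and on the strand of the gene for TATAAA. Over 32544 promoters these occurred in 4.53, 1.64, 5.19, 1.8, 5.6 and 8.28%, respectively. Zfp36 had a CArG box, the motif of serum response factor, at position -58 and a GCGNGGGCG match, the motif of EGR proteins, at -105. In GENCODE M21 the gene starts farther upstream (28380253), so this RefSeq window lies inside the annotated gene. The transcript of 2790 bases used for its levels per kb reaches upstream of the RefSeq start, and a shorter transcript was not tried. The bases -150 to -1 of Zfp36 (chr7:28379229-28379378, minus strand) are printed, with both matches in capitals. Zfp36 was chosen as the most abundant member and the only up-regulated member with more than 1 match.
Zfp36: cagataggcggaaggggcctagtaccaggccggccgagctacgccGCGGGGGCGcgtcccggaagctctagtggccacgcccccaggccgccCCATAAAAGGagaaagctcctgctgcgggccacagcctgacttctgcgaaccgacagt
Zfp36l1 had TATAAA at -29, Rc3h1 had TGACTCA at -133 and Hnrnpd had a CArG box at its start. The windows of Zc3h12a, Zc3h12c, Rc3h2, Elavl1 and Khsrp held no match to the 6 motifs. No factor binding was measured.

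The proteins that carry out decay downstream of these factors were read from lists of deadenylation, decapping, exosome and UPF1 genes. Of 20 tested deadenylation genes, 3 rose and 1 fell (20% changed, against 13.9% of all genes tested), with a median log2 fold change of -0.07. The 3 were the adaptor Btg2, which links proteins to the CCR4-NOT deadenylases, with 31.9 ± 3.82 CPM in GSK-J4 against 104 ± 9.34 CPM in LPS + GSK-J4 (SD, n = 3, log2 fold change 1.69, edgeR adjusted p = 3.628e-07), its relative Btg1 (0.59) and the poly(A)-binding protein gene Pabpc1 (0.47). The deadenylase Cnot6l fell by 0.71 on the log2 scale. Of 22 decapping and 5′ to 3′ decay genes, 0 rose in edgeR (0 at an unadjusted p under 0.05) or in DESeq2. In edgeR 1, Patl1, fell by 0.59 on the log2 scale (4.55% changed, against 13.9% of all genes tested). No gene of 17 in the exosome list or of 9 in the UPF1 list was called changed by edgeR or DESeq2, and 4 and 1 of these had an unadjusted p under 0.05. The share over all genes tested was 13.9%, and lists this short were not tested against it. The calls of Btg1, Pabpc1, Cnot6l and Patl1 were each lost when some single library was left out. Btg1 depended on GSK-J4 replicate 2 and LPS + GSK-J4 replicate 2, Pabpc1 on every library but LPS + GSK-J4 replicate 3, Cnot6l on every library but GSK-J4 replicate 3 and LPS + GSK-J4 replicate 1, and Patl1 on all 3 GSK-J4 libraries and LPS + GSK-J4 replicate 2.

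Relatives of the members are other proteins that bind AU-rich elements, stem-loops or cytokine mRNAs. Of 32 tested, 4 rose and 1 fell (15.6% changed, against 13.9% of all genes tested), and the median log2 fold change was 0.05. Arid5a, which protects Il6 mRNA from regnase-1, was at 12.03, 15.9 and 20.5 CPM in GSK-J4 and at 38.2, 42.4 and 47.1 CPM in LPS + GSK-J4 (log2 fold change 1.42, SE 0.20, adjusted p = 8.354e-05 in edgeR), and its groups did not overlap. G3bp1 (0.71) and Fubp1 (0.75) also rose. Igf2bp1 passed the fold threshold of the study (1.54, adjusted p = 0.005116) from only 5 to 25 counts per library. Hnrnpll fell by 0.62 on the log2 scale. The call of Igf2bp1 was lost in DESeq2 (adjusted p = 0.0222), without replicate 3 of both groups (edgeR adjusted p = 0.0197), and without GSK-J4 replicate 2 or 3 or LPS + GSK-J4 replicate 2. The call of Fubp1 was lost without GSK-J4 replicate 3 or LPS + GSK-J4 replicate 2, and that of Hnrnpll without GSK-J4 replicate 1 or 2 or LPS + GSK-J4 replicate 2.

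Genes whose products act on tristetraprolin or regnase-1 gave 3 up-regulated and 2 down-regulated of 28 tested, with a median of 0.15. Of these genes 17.9% changed, against 13.9% of all genes tested. Malt1, the protease that cleaves regnase-1, was at 69.8, 51.6 and 39.6 CPM in GSK-J4 and at 338, 293 and 254 CPM in LPS + GSK-J4. It rose more than any member, with a log2 fold change of 2.44 (SE 0.18, adjusted p = 4.203e-08 in edgeR). Mapkapk2, the kinase that phosphorylates tristetraprolin and lessens its activity, rose as well, from a mean of 181 ± 14.2 to 461 ± 41.7 CPM (SD, n = 3, log2 fold change 1.35, edgeR adjusted p = 4.031e-07), and Dusp1, the phosphatase that turns off p38 upstream of it, rose by 1.16 (adjusted p = 8.922e-06). Mapkapk3, a relative of Mapkapk2, and the uridylyltransferase gene Zcchc11 fell, with log2 fold changes of -0.77 and -0.80. The call of Mapkapk3 was lost without GSK-J4 replicate 1 or 3 or LPS + GSK-J4 replicate 1 or 2, and that of Zcchc11 without replicate 2 of either group.

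The mRNAs that these proteins are known to target were mostly higher in the same libraries where they could be tested. Of 32 targets listed, 11 were too low to test. Of the 21 tested, 19 rose, against 8.42% of all genes tested, and the median log2 fold change was 3.41. Past the fold threshold of the study were 16, against 2.95% of all genes tested upward. These were the cytokine genes Tnf, Il1a, Il1b, Il6, Il12b and Lif, the chemokine genes Cxcl1, Cxcl2, Ccl2, Ccl3 and Ccl4, and Ptgs2, Nfkbiz, Nfkbid, Pde4b and Socs3. Il6, Il12b, Cxcl1 and Ccl2 had fewer than 10 counts in a GSK-J4 library (1, 0 and 0 for Il12b) and passed the filter through the group where they were high. The 19 that rose, the 16 past the fold threshold and the median of 3.41 include these genes, so they do not count as support. With at least 10 counts in every library, 15 of 17 rose and 1 fell. Nfkbiz, whose mRNA is cleaved by regnase-1, rose by 5.02 (37.3 ± 7.15 to 1219 ± 61.6 CPM, SD, n = 3). The log2 fold changes of Socs3, an inhibitor of cytokine signalling, and Ptgs2, which makes prostaglandins, were 2.98 and 1.77, and those of Nfkbid, Lif and Pde4b were 2.45, 2.40 and 1.99. The remaining 3 that rose were Plaur, Ier3 and Hmgb2. Vegfa, a tristetraprolin target, fell by 0.80 on the log2 scale (adjusted p = 0.001578 in edgeR), a call that was lost without LPS + GSK-J4 replicate 2, and Plk3 did not pass the test (0.77, adjusted p = 0.06224). mRNA levels alone do not give decay rates, which were not measured.

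**Figure D5:**
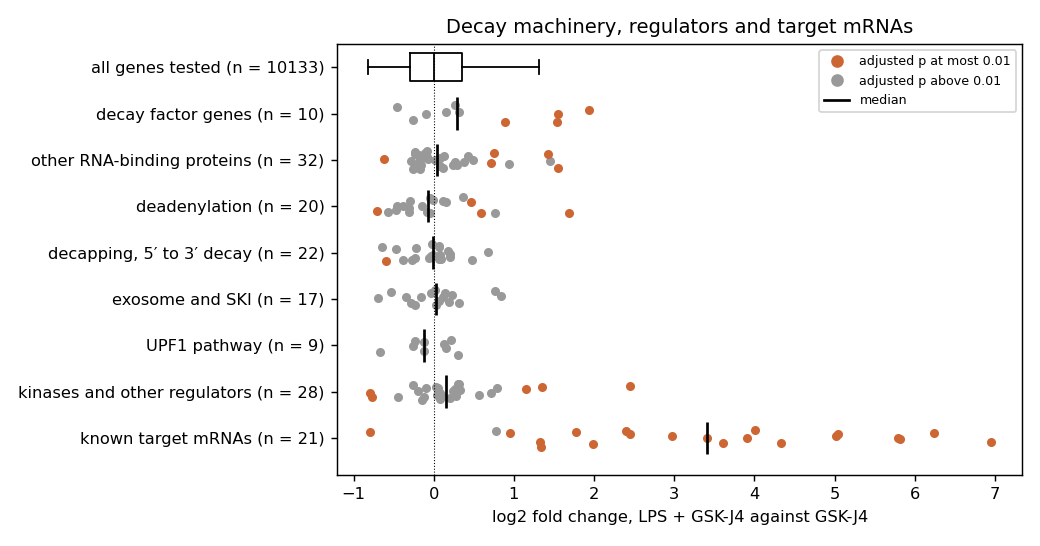
Log2 fold change of LPS + GSK-J4 over GSK-J4 for each tested gene (points, orange for an adjusted p of at most 0.01 in edgeR) of the members, other RNA-binding proteins, the decay machinery, the regulators and the target mRNAs, with a line for the median of each list, and a box for the quartiles of all genes tested with whiskers at the 5th and 95th percentiles. The targets have a median of 3.41 and the members of 0.29, and the medians of the decay machinery lie between -0.12 and 0.03.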

How the data were processed

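Directional libraries of PM were made after removal of rRNA. Per the labels and the methods, the authors trimmed reads with Trimmomatic 0.33, aligned them to mm10 with STAR 2.5.1 and deposited raw counts per gene, without normalization. The gene annotation used for counting was not given in the sources used here. STAR counts a fragment only where it maps to a single place and overlaps a single gene. The reverse-strand counts were used here, and the same-strand column held 0.966 to 1.38% of the counts on both strands. The tallies of unassigned fragments in each table were left out. Fragments on no gene or on more than 1 gene made up 59.5 to 62.8% of those that mapped to a single place, by the reverse-strand counts.

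Counts were tested in R 4.3.3 with edgeR 4.0.16 (TMM, filterByExpr at 10 counts and a total of 15, robust quasi-likelihood test, no covariates), with Benjamini-Hochberg adjustment over every gene that passed the filter. The common biological coefficient of variation was 0.133. DESeq2 1.42.0 was an alternative. Shares within a family used a 2-sided exact permutation test in scipy 1.17.1. Lengths and 3′ UTRs are those of the principal transcript in GENCODE M21.

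All members were named. From other lists, genes past the fold threshold of the study and up to 5 changed genes per direction were taken, with the highest marker of each other cell type. A marker that this rule would name is not reported here. The members and gene lists were chosen with earlier results of these data known. The alternatives were other scaling factors, unstranded counts, other filters and thresholds, a replicate block and each library left out. Replicate 3 of both groups left out was added after the data were seen. No replicate pair had identical counts. By a chi-square of the counts per degree of freedom, replicates 1 and 2 were the closest pair in GSK-J4 (2.12) and LPS + GSK-J4 (2.32). Pairs with replicate 3 gave 5.81 to 12.5.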

Additional observations from a re-analysis of the deposited data

Results flagged for a closer look

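Counts of Zc3h12c on the opposite strand entered only the alternative with unstranded counts. In every LPS + GSK-J4 library they were above 3 and above those of every GSK-J4 library. These counts were 4, 1 and 1 in the GSK-J4 libraries and 7, 5 and 7 in the LPS + GSK-J4 libraries, beside 140 to 607 counts on the strand of the gene. As a share of both strands they were 1.36, 0.435 and 0.709% against 1.16, 0.817 and 1.48%, and the groups overlapped.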

How the results depend on the processing

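The 4 up-regulated members kept their calls under all 15 alternatives, and of 416 counts and shares under alternatives 367 moved less than 1.5 times or than the SD. Without a filter on low counts, which shifted the median of all genes to 0.12, 1 member passed the fold threshold of the study, 1 member fell (Zfp36l2, -0.52), and 858 genes fell, 7 relatives rose and 2 deadenylation genes fell. With at least 10 counts in every library, 176 genes passed the fold threshold upward and 0 deadenylation genes fell. At an adjusted p of at most 0.05, 1386 genes rose and 1004 fell, as did 8 relatives upward, 5 deadenylation genes upward and 3 downward, 2 decapping genes and 1 UPF1 gene downward and 5 regulators upward. The replicate numbers were not taken as pairing the samples, since same-numbered libraries deviated with r of -0.0102, 0.117 and 0.295. Libraries with different numbers gave r of -0.29 to 0.243, so the highest value was that of the replicate 3 libraries. What these libraries shared was not tested. With a replicate block, 1 member fell (Zfp36l2, -0.47, adjusted p = 0.000966 in edgeR), 1016 genes fell, 8 relatives and 5 regulators rose, and 2 deadenylation and 2 decapping genes fell. Without replicate 3 of both groups, 1 member, 3 deadenylation genes and 1 exosome gene fell, and Elavl1 rose. On counts in place of CPM per kb, the share of Zfp36 differed by 20.4 percentage points. Leaving out each library gave 1 to 3 members past the fold threshold, 0 to 1 members lower, 595 to 925 genes higher and 312 to 679 lower, the latter least without LPS + GSK-J4 replicate 2 and 359 without GSK-J4 replicate 2. Relatives gave 2 to 6 higher and 0 to 1 lower, deadenylation genes 1 to 3 and 0 to 1, decapping genes 0 to 1 lower, regulators 0 to 2 lower and targets 0 to 1 lower. The log2 fold change of Khsrp then lay between -0.32 and 0.0399, and turned positive without GSK-J4 replicate 3 (0.0286) and without LPS + GSK-J4 replicate 1 (0.0399). The cause of these differences was not tested. Depth limits the low genes most, since 3 counts are up to 1.24 CPM.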
